A study of Mus musculus with 300 samples.

Results

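In the liver of mice from a cross of the inbred strains SM/J (SM) and MRL/MpJ (MRL), 70 of 34406 measured transcripts stood clearly higher in SM than in MRL in both sexes. A transcript was a member if every SM animal exceeded every MRL animal of its sex, the mean of SM exceeded that of MRL by at least 0.8 on the log2 scale, and the mean of F2 males lay within 0.5 of that of F2 females. The first condition held for 847 transcripts, the second left 95 and the third 78, of which 8 were left out by identifier. The members were thus selected on the SM and MRL values and on the F2 sex difference, and these are given here without a test. The F1 values, and the shape and correlation of the F2 values, did not enter the choice.

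The study set RNA from 300 livers, 1 array for each mouse, to find loci that act on transcript levels. The 282 F2 mice of both sexes came from an intercross of F1 mice, and the F1 mice (3 labelled female and 3 labelled male) from MRL mothers and SM fathers. From SM and from MRL, 3 females and 3 males were measured. Mice of all groups were untreated, ate chow, and at 13 weeks of age were kept singly for 3 days and fasted before the liver was taken.

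An F1 mouse from inbred parents carries an allele of each strain at every autosomal locus, and its level for a transcript lies near the middle of the parents where the effects of both alleles add up. F2 mice inherit either allele from each parent, so a transcript under the control of a single locus can fall into separate levels among them, with heterozygotes in the middle and the most frequent. Transcripts that follow the same locus, or neighbouring loci that are inherited together, rise and fall together over F2 animals. A difference in sequence under a probe can also change the signal of an array between strains, and here sequence under the probes was not examined. The livers were measured in bulk, so that fewer cells of a type and less RNA per cell cannot be told apart.

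The rows carry Ensembl transcript identifiers, and the gene table used here names 0 of the 70 members, so members are given by identifier and no sequence is shown. The identifiers do not all stand for separate measurements. Joining members whose F2 female values correlated at 0.98 or more left 44 distinct rows, with 38 members in 12 near-identical groups, although 0 rows were identical in value. Members of such a group may share probes and are counted together below wherever this matters. For the same reason, markers of hepatocytes or of other liver cells were not read.

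Some libraries stood apart. The library labelled F1 male 1146 scored -0.97 over 51 sex-separated transcripts, on a scale where parental females average -1 and parental males 1. By this score it was female-like, while F1 males 1151 and 1152 each scored 0.93. It was kept as labelled, among the F1 males, wherever the sexes were separated. On that scale 5 F2 libraries, 4 labelled female and 1 labelled male, lay between the sexes. The library labelled F1 female 1145 stood apart from the other F1 libraries at many members, as described below. Array spread, meaning the SD of all values of an array, averaged 1.31 in F1 females, 1.26 in F1 males, 1.27 in SM females, 1.26 in SM males, 1.24 in MRL females and 1.30 in MRL males. The arrays lay in 14 batches, and no batch held F1 and both parental strains of the same sex. The number of arrays in each group limits the precision.

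The greatest strain difference belonged to transcript ENSMUST00000098672. It stood at 10.29, 10.27 and 10.36 in SM females and at 10.19, 10.38 and 10.23 in SM males, against 8.53, 8.14 and 8.31 in MRL females and 8.79, 8.22 and 8.32 in MRL males (log2 expression). The lowest SM animal stood well above the highest MRL animal, and the difference of 1.90 is 3.73-fold on the unlogged scale. Next came ENSMUST00000032944 (1.83), ENSMUST00000069507 (1.82), ENSMUST00000033213 (1.79), ENSMUST00000030486 (1.46), ENSMUST00000101655 (1.46), ENSMUST00000110135 (1.45), ENSMUST00000070943 (1.43), ENSMUST00000106268 (1.41) and ENSMUST00000028938 (1.37), all as SM minus MRL. The median member differed by 1.04, and the smallest difference was 0.81 (1.75-fold). Members were mostly well expressed: their mean level over all arrays ran from 5.68 to 11.39 with a median of 8.24, and 61 of 70 lay above the median of all transcripts.

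**Figure D1:**
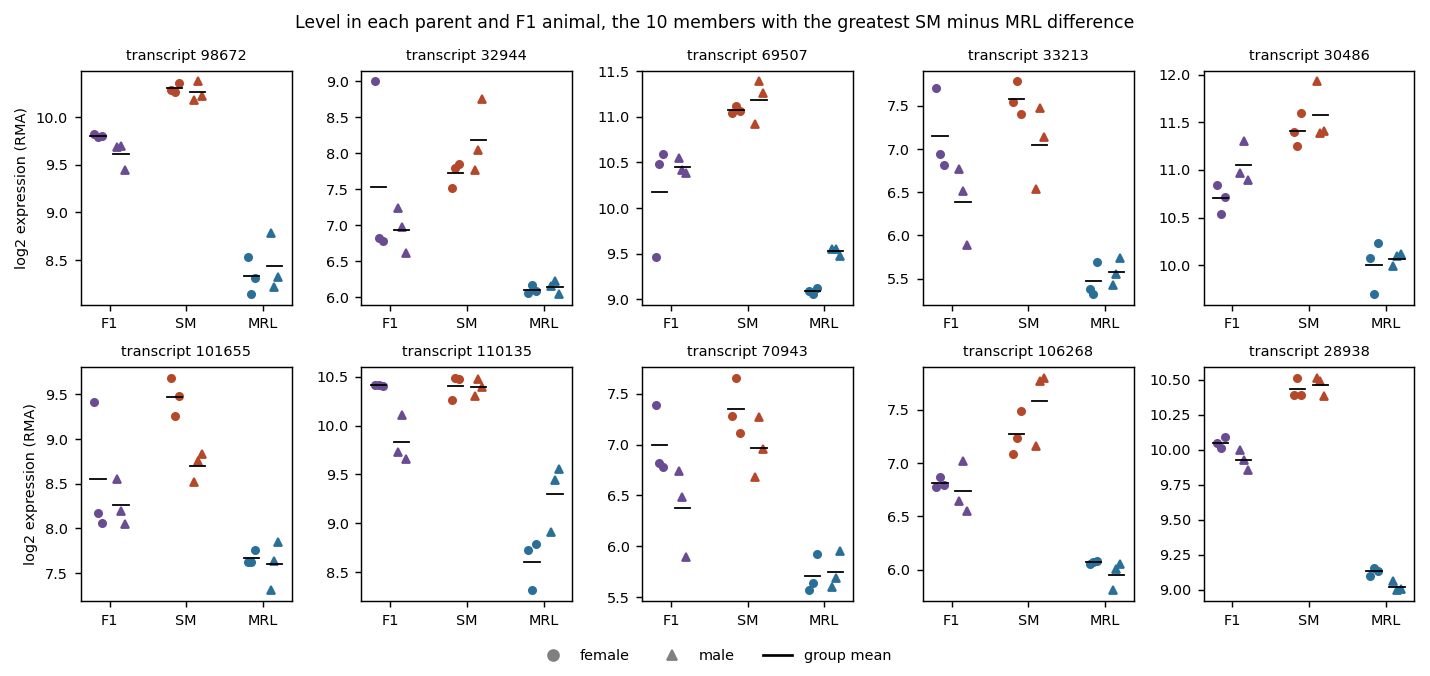
Level of the 10 members with the greatest strain difference in each of the 18 parental and F1 animals (log2 expression, vertical axes; F1, SM and MRL from left to right; circles females, triangles males, bars group means). Titles give the last digits of the identifier. F1 animals mostly sit between SM and MRL animals, and 1 F1 female stands apart at ENSMUST00000032944, ENSMUST00000069507, ENSMUST00000033213, ENSMUST00000101655 and ENSMUST00000070943.

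The conditions had close calls. At the limit on the strain difference, ENSMUST00000108296 (0.81) and ENSMUST00000100635 (0.81) lay just inside, while ENSMUST00000111213 and ENSMUST00000073054 (both 0.80 after rounding, from 0.7995 and 0.7996) lay just outside. For the F2 male minus female difference, ENSMUST00000111901 (-0.36) and ENSMUST00000041591 (0.39) were the nearest inside and ENSMUST00000045097 (-0.57) and ENSMUST00000052068 (-0.58) the nearest outside. The narrowest gap between the lowest SM and the highest MRL animal of a sex was 0.02 for ENSMUST00000112524 and 0.03 for ENSMUST00000074082, which form 1 near-identical group. Just outside lay ENSMUST00000073997 (-0.01) and ENSMUST00000079034 (-0.07), where the animals of the strains overlapped.

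F1 animals lay between the parents for most members, by their mean somewhat nearer to SM on the log2 scale. On a scale that sets the MRL mean at 0 and the SM mean at 1, the F1 mean had a median position of 0.61 over the 70 members (quartiles 0.53 and 0.67). It lay above the midpoint in 57 of the 70, with near-identical rows taken singly. With 1 row for each near-identical group the median was 0.60, with 34 of 44 rows above the midpoint. Without F1 female 1145 the count was 49 of 70, and without the library labelled F1 male 1146 it was 50. On the unlogged scale the median was 0.55, with 44 of 70 above the midpoint. There it was 0.63 in F1 females and 0.45 in F1 males. The share over all transcripts was not counted. The F2 mean had a median position of 0.54. All 6 F1 animals lay strictly between the SM and MRL animals of their sex in 12 members, so single F1 animals often reached a parental range.

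The F1 mean stood above the parental mean beyond replicate error in 1 member, ENSMUST00000028938. Its values were 10.05, 10.01 and 10.09 in F1 females and 10.00, 9.93 and 9.85 in F1 males. SM animals stood between 10.39 and 10.51 and MRL animals between 8.99 and 9.16, so the F1 animals overlapped neither parent and lay at position 0.67. F1 exceeded the mean of the parental groups by 0.23 ± 0.03 (SE) on the log2 scale, with an adjusted p of 0.0186 in limma over all transcripts. The call was lost, with adjusted p between 0.0518 and 0.0762, without any 1 of MRL males 7 and 8, MRL female 1 and F1 females 1145, 1149 and 1150, and also after quantile normalization (0.056), with batch effects subtracted (0.306) and with batch as a fixed term (0.153).

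Over all transcripts 0.0203% were called higher and 0.0174% lower in F1 than in the parental mean, and of the members 1 was called higher and 0 lower. At an unadjusted p under 0.05, 21 of the 70 members were higher and 3 lower, against 1519 higher and 1745 lower of all 34406 transcripts. These counts take near-identical rows singly. The higher ones include all rows of the near-identical group of ENSMUST00000110135, and the lower ones the near-identical pair ENSMUST00000006366 and ENSMUST00000084509. The median departure of the members was 0.11, against -0.01 over all transcripts. This contrast was made on log2 values. An F1 level midway between unlogged parental levels lies above their log2 mean, the more so the further the parents differ. Members were chosen for a large strain difference, so their departure, that of ENSMUST00000028938 included, depends on the scale. The comparison with all transcripts does too, and how much was not tested. Without F1 male 1152 the fit called 9 members higher, and without SM male 6 it called 1 higher and 1 lower, and without MRL male 6 it called 2 higher.

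**Figure D2:**
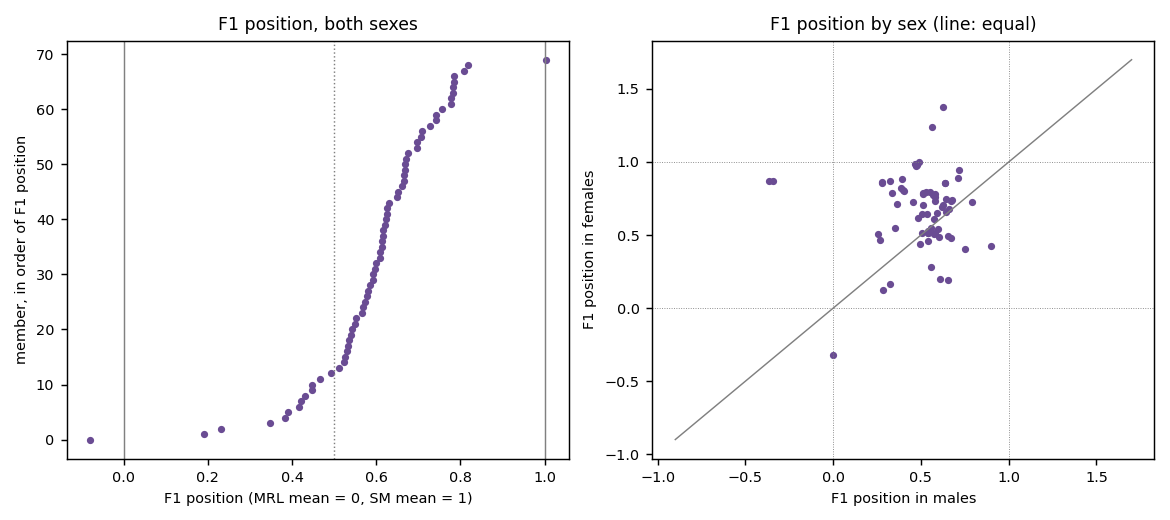
Position of the F1 mean between the MRL mean (0) and the SM mean (1) for the 70 members, ordered by position (left), and the same in F1 females (vertical axis) against F1 males (horizontal axis, right). Most points on the left lie between the midpoint and 0.8, and on the right 49 of 70 points lie above the line of equal position.

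At the upper end of the F1 scale, ENSMUST00000098326 had the highest position, 1.00: its F1 females stood at 8.29, 8.12 and 8.28 and its F1 males at 7.88, 7.84 and 7.05. SM females had 7.78, 8.25 and 7.63, SM males 7.58, 8.13 and 8.06, MRL females 6.90, 7.01 and 7.00, and MRL males 6.99, 6.73 and 7.34. F1 females overlapped the highest SM female, while 1 F1 male lay within the MRL range. ENSMUST00000073471 (0.82) and ENSMUST00000110135 (0.81) followed.

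At the other end ENSMUST00000023934 had position -0.08, with F1 females at 5.38, 4.95 and 5.37 and F1 males at 5.91, 4.85 and 5.00. SM animals of this transcript were uneven: the females stood at 6.06, 5.69 and 5.94 and the males at 5.47, 7.38 and 7.45, against 5.45, 5.42 and 5.32 in MRL females and 5.06, 5.36 and 5.32 in MRL males. Its strain difference therefore rests largely on SM males 7 and 8. The near-identical pair ENSMUST00000006366 (0.19) and ENSMUST00000084509 (0.23) had F1 animals close to the MRL level. For ENSMUST00000006366 F1 animals stood between 6.12 and 6.56, SM animals between 6.89 and 7.73 and MRL animals between 5.99 and 6.28.

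F1 males lay nearer the midpoint than F1 females. The median position was 0.54 in F1 males and 0.72 in F1 females, and 49 of 70 members had the higher position in females. The median difference in departure, male minus female, was -0.15 on the log2 scale over the members and 0.01 over all transcripts. Without the library labelled F1 male 1146 the median position in males was 0.50. With the slope on array spread subtracted, the median positions were 0.57 in males and 0.56 in females, and the median difference in departure turned to 0.03. The difference also turned, to 0.34, with batch as a fixed term, and it was -0.05 after quantile normalization.

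The difference between the sexes passed the test in 6 members, all lower in males and all of 1 near-identical group: ENSMUST00000110135, ENSMUST00000110136, ENSMUST00000110137, ENSMUST00000060955, ENSMUST00000028822 and ENSMUST00000063729. ENSMUST00000110135 stood at 9.73, 10.11 and 9.66 in F1 males and at 10.41, 10.42 and 10.40 in F1 females. SM males had 10.31, 10.48 and 10.40 and SM females 10.26, 10.49 and 10.47, against 8.91, 9.44 and 9.56 in MRL males and 8.73, 8.31 and 8.79 in MRL females. F1 females coincided with SM females, while F1 males overlapped neither parent, and the MRL males were above the MRL females.

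For this transcript the F1 departure from the parental mean differed by -0.91 ± 0.18 (SE), male minus female, with an adjusted p of 0.0475 in limma, and over the 6 members the estimates ran from -0.91 to -0.80. Of all transcripts 0.14% were called lower and 0.183% higher in males by this contrast, against 6 members lower and 0 higher. The 6 rows are close to 1 measurement, and their calls are near the threshold. When each of the 18 animals was left out in turn the count was 0 for 14 of them, as it was with batch effects subtracted or fitted as a fixed term, and 0 with the array spread slope subtracted. Leaving out the library labelled F1 male 1146 gave 6, as did leaving out SM female 2, and the count was 7 without F1 male 1151 and 8 without SM male 6. It was 0 without F1 female 1145.

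The largest estimates of this kind did not pass the test. ENSMUST00000112524 and its near-identical partner ENSMUST00000074082 differed by -1.10 ± 0.40 and -1.09 ± 0.39 (SE), with limma adjusted p of 0.0989 and 0.0986. ENSMUST00000112524 stood at 10.56, 9.65 and 10.37 in F1 males and at 11.50, 10.75 and 11.19 in F1 females. SM animals lay between 10.85 and 11.70 and MRL animals between 9.66 and 10.83, so the F1 males were no higher than MRL animals and the F1 females overlapped SM animals.

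Over the 282 F2 animals, 32 of the 70 members fell into separate levels. Values were adjusted for sex and batch and fitted with 1, 2 or 3 normal components of equal width, and a member was counted as split where BIC, a measure of fit that penalises added components, improved by at least 10 and the smallest component held at least 5% of animals. The fit thus split 45.7% of the members, into 3 levels in 20 and into 2 in 12, or 21 of the 44 distinct rows. Of all transcripts 0.997% were split, 0.198% into 3 levels and 0.799% into 2. The members were chosen for separated parents with small spread, and no test of the difference in shares was made.

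In the 20 members with 3 levels the components lay near the parental and F1 means. The low component lay at a median position of -0.01 (range -0.18 to 0.08), the middle one at 0.60 (0.49 to 0.78) and the high one at 0.97 (0.88 to 1.29), on the scale with MRL at 0 and SM at 1. The F1 mean of these members had a median position of 0.63, and it differed from the middle component by a median of 0.05 in size. The weights were a median of 22.9% in the high component, 52.2% in the middle one and 25.1% in the low one. These members fill 15 distinct rows.

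**Figure D3:**
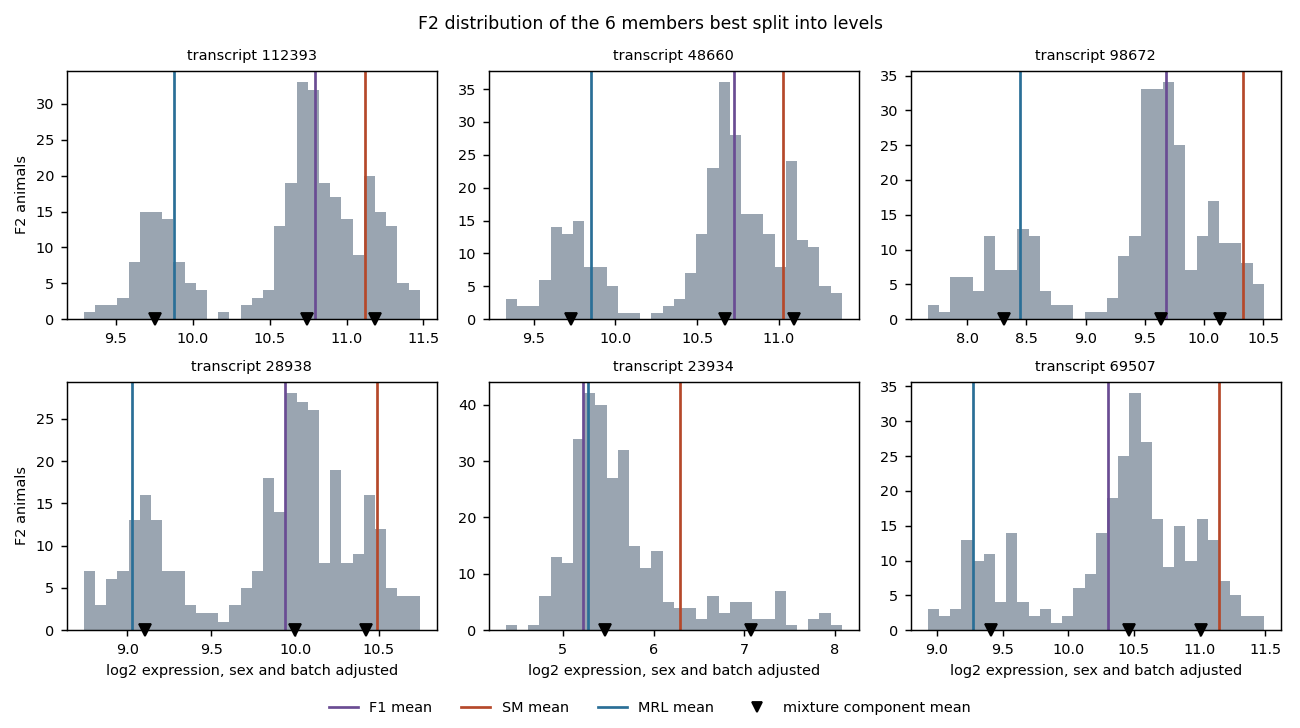
Histograms of all 300 animals, 282 from F2 and 18 parental or F1, for the 6 members best split into levels. Values are log2 expression adjusted for sex and batch, and the vertical axes, labelled F2 animals, count all 300. Components were fitted to the F2 animals alone. Lines mark the F1, SM and MRL means and triangles the component means: in 5 panels the components lie near the 3 means, and in ENSMUST00000023934 the smaller component lies beyond the SM mean.

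The best split was that of ENSMUST00000112393 and its near-identical partner ENSMUST00000048660, with gains in BIC of 199.8 and 195.5. For ENSMUST00000112393 F2 animals ran from 9.29 to 11.48 with a median of 10.74. Its components lay at 9.76, 10.74 and 11.18 and held 25.5%, 49.0% and 25.5% of animals, against an adjusted F1 mean of 10.80, an SM mean of 11.12 and an MRL mean of 9.88. The middle level stood at position 0.69, so it was closer to the high level than to the low one.

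ENSMUST00000098672, with the greatest strain difference, had F2 values between 7.67 and 10.49 around a median of 9.59. Its components at 8.31, 9.64 and 10.14 held 25.8%, 56.3% and 17.9% of animals (gain in BIC 170.4). ENSMUST00000028938, called above for its F1 mean, had components at 9.10, 10.00 and 10.42, with 28.2% of animals in the low one and 21.8% in the high one (gain 137.1). Its middle component lay close to the adjusted F1 mean of 9.94.

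ENSMUST00000069507 showed the same form, with components at 9.41, 10.47 and 11.01 that held 22.2%, 54.7% and 23.1% of F2 animals (gain 105.5). Among the F1 animals it stood at 9.46, 10.48 and 10.59 in females and 10.55, 10.42 and 10.38 in males, so that F1 female 1145 lay at the low level and the other 5 at the middle one.

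**Figure D4:**
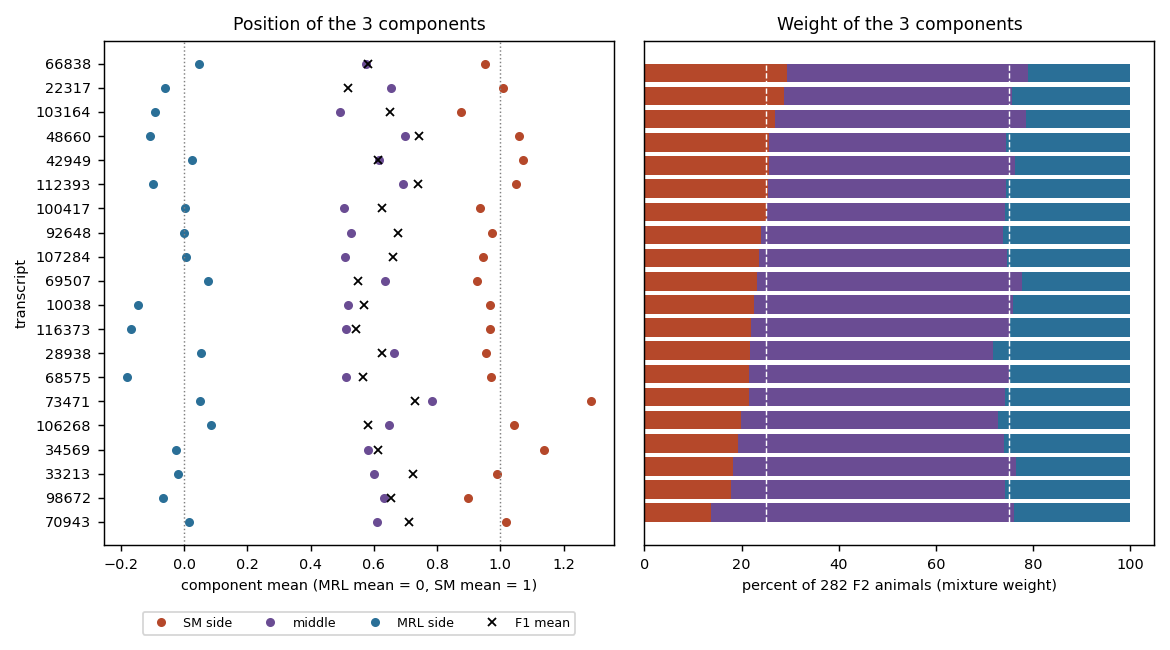
The 20 members with 3 levels in F2, named by the last digits of the identifier. Left, position of each component mean with MRL at 0 and SM at 1, crosses marking the F1 mean; right, weight of each component in percent of 282 animals, with dashed lines at 25% and 75%. Middle weights run from 46.8% to 62.6%.

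The members with 2 levels took several forms. The 7 near-identical rows of the group of ENSMUST00000101655 had a low component with most of the animals: for ENSMUST00000101655 it held 68.2% at 8.02, and the high one held 31.8% at 8.96. ENSMUST00000075552 and ENSMUST00000098666 had the opposite form, with 25.4% and 25.3% of animals in the low component. ENSMUST00000030486 was split weakly (gain 11.6), with 11.9% of animals in the low component.

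ENSMUST00000023934 was the exception to the parental frame. Its F2 values ran from 4.37 to 8.07 with a median of 5.50, and 86.2% of animals lay in a component at 5.47 and 13.8% in one at 7.08 (gain 117.4). The upper component stood at position 1.77, and the F2 values between their 5th and 95th percentiles spanned 2.16 times the strain difference. SM males 7 and 8, at 7.38 and 7.45, were near the upper component, and the other 4 SM animals, from 5.47 to 6.06, were nearer the lower one.

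Over all 70 members, those with separate levels included, F2 values were mostly skewed to the low side. Near-identical rows are taken singly here. The median skewness was -0.19 over the members and 0.05 over all transcripts, and 47 of 70 members (67.1%) were skewed to the low side, against 41.1% of all transcripts. Their median excess kurtosis was -0.35, against 0.19 over all transcripts. The greatest skewness in size pointed up, in the near-identical pair ENSMUST00000084509 (1.56) and ENSMUST00000006366 (1.505), whose F1 animals stood near MRL. For ENSMUST00000006366 8.8% of F2 animals lay in a component at 7.04, close to the SM mean of 7.13, and 91.2% in one at 6.38. Its partner ENSMUST00000084509 was not counted as split, with 2.8% of animals in an upper component at position 1.22. Whether this pair counts as split thus depends on the row read.

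Some members had F2 animals beyond the parents. ENSMUST00000035842 had 50 of 282 F2 animals above the highest SM animal. ENSMUST00000091848, ENSMUST00000110691 and ENSMUST00000021621, 1 near-identical group, had 49, 46 and 40 such animals. ENSMUST00000073471 had 42, and ENSMUST00000098326 had 34. On the other side, ENSMUST00000112393 and ENSMUST00000048660 each had 29 F2 animals below the lowest MRL animal, ENSMUST00000068575 had 24 and ENSMUST00000010038 had 21. These counts rest on the extremes of only 6 SM and 6 MRL animals.

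The F1 animals were set against the F2 levels of the 20 members with 3 levels, with each animal assigned to the nearest component. F1 females 1149 and 1150 were nearest the middle in 20 of 20 members, F1 male 1151 in 19 and F1 male 1152 in 18. The library labelled F1 male 1146 was nearest the middle in 14, the high level in 5 and the low level in 1. The library labelled F1 female 1145 was nearest the middle in only 7, the high level in 10 and the low level in 3. Over the 15 distinct rows it was nearest the high level in 6, the middle in 6 and the low level in 3.

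F1 female 1145 was thus at outer levels in both directions. ENSMUST00000032944 shows it at the high end, with 9.00 in this library against 6.83 and 6.78 in the other F1 females, 7.23, 6.97 and 6.62 in F1 males and at most 8.76 in SM animals. Without this library the median F1 position of the members was 0.60 in place of 0.61, and that of F1 females 0.65 in place of 0.72. Beyond the sex score of the library labelled F1 male 1146, what sets it and F1 female 1145 apart was not tested.

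F2 animals varied more than F1 animals in most members. The residual SD was larger in F2 than in F1 in 60 of 70 members, with near-identical rows taken singly. The share of all transcripts with a larger SD in F2 was not counted. F2 variance was also divided by the F1 variance, moderated over all transcripts with limma, a test chosen after the data were seen because the planned one, on absolute deviations, called 0 of 50 simulated transcripts with a 6-fold SD. The median ratio was 5.99 over the members, against 1.13 over all transcripts, and without F1 female 1145 these were 10.4 and 1.16. The ratio passed an adjusted p of 0.05 in 6 members, against 0.0581% of all transcripts. These were ENSMUST00000098672, ENSMUST00000075552, ENSMUST00000112393, ENSMUST00000028938, ENSMUST00000048660 and ENSMUST00000023820.

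ENSMUST00000098672 had an F2 SD of 0.71 and an F1 SD of 0.12, with a ratio of 44.3 and a limma adjusted p of 0.00264. The others had ratios of 25.3, 24.0, 23.0, 21.9 and 19.0 in the order given. Below the threshold ENSMUST00000030486 had a ratio of 15.0 (adjusted p of 0.0694). The lowest ratios were 0.98 for ENSMUST00000071069, 0.98 for ENSMUST00000106821 and 1.07 for ENSMUST00000033211, 3 near-identical rows whose F1 SDs were 0.53, 0.49 and 0.47. ENSMUST00000032944 had the smallest F2 minus F1 difference in absolute deviation, -0.19.

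The number called moved with single F1 libraries. It was 18 without F1 female 1145 and 12 without the library labelled F1 male 1146, but 2 without F1 female 1149 and 1 without F1 female 1150, F1 male 1151 or F1 male 1152, and 3 with the array spread slope subtracted. ENSMUST00000098672 was called under all 10 alternatives. The planned test called 0 members, and of all transcripts 0% higher and 0.692% lower in F2. On simulated data this test called 0.316% of transcripts with equal spread in F1 and F2. Neither its calls nor its unadjusted counts are therefore read as a difference in spread. At an unadjusted p under 0.05 it had 17 members higher and 0 lower in F2, near-identical rows taken singly, against 973 higher and 2250 lower of all 34406 transcripts. The F2 mean differed from the F1 mean in 0 members by limma, against 0.00872% of all transcripts higher and 0% lower. At an unadjusted p under 0.05 these were 0 members, against 777 higher and 683 lower of all transcripts.

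The members formed 14 groups of correlated transcripts in F2 and 12 single members. Groups were drawn in the F2 females, with batch effects subtracted, by joining members with a Pearson r of at least 0.5, and the same pairs were then read in the F2 males. The groups held 58 members and 133 pairs, of which 56 lay within near-identical groups and 77 did not. Of the 132 pairs that themselves reached 0.5 in females, 106 also did in males, and 0 pairs within groups changed sign. These counts include the 56 near-identical pairs, whose r in males was at least 0.968. Of the 77 pairs of distinct rows, 50 reached 0.5 in males. In males each of the 133 pairs had an adjusted permutation p of at most 2.41e-04 over 2415 pairs (100000 resamples, smallest possible p 1e-05). Of all 2415 member pairs, in groups or not, 307 had an adjusted permutation p under 0.05 in males. Passing that threshold thus does not by itself mark out the groups.

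**Figure D5:**
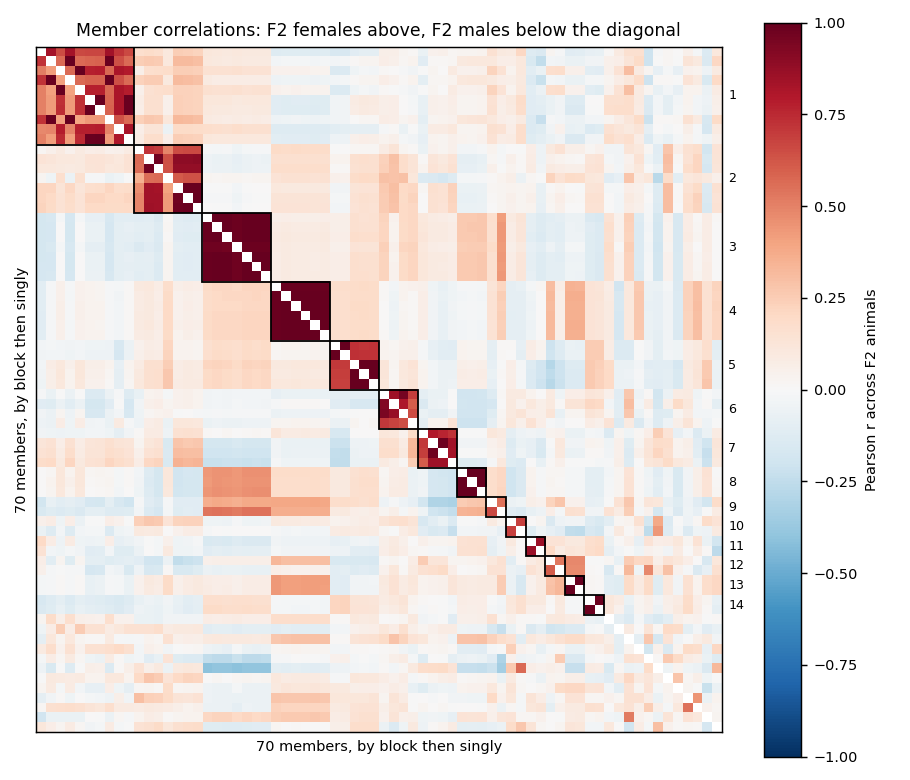
Pearson r between the 70 members over F2 females (above the diagonal) and F2 males (below), with boxes around the 14 correlated groups, numbered by size, and single members last. The boxes are red on both sides of the diagonal and most of the field outside them is pale.

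As a raw count, the pairs did not stand out in males. In males 4.80% of member pairs had an r of at least 0.5 in size, against 4.32% of all transcript pairs, and in females 5.47% against 2.78%. With the slope on array spread subtracted, the member shares were 4.84% in males and 5.47% in females, while the shares of all pairs were 0.0627% and 0.0473%. The correlations of the members themselves with array spread had a median of 0.12 in males (range -0.09 to 0.45) and 0.11 in females (-0.16 to 0.37). The highest in males were those of ENSMUST00000111902, ENSMUST00000006171 and ENSMUST00000111901, 3 near-identical rows of group 5. Members were linked mostly within their groups: over 91 pairs of groups the median r in males ran from -0.22 to 0.45, and 83 of these medians were under 0.2 in size.

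Where F2 animals fall into levels, a pooled correlation mixes the levels, so agreement of levels and correlations within them are given instead. Correlations within levels use, for each group, the levels of its best split member. Over 159 pairs of members with 3 levels from different groups, 29.4% to 50.7% of the 282 animals were at the same level in both members, with a median of 38.7%. Agreement was higher in every 3-level pair of the groups listed below, but the groups were drawn in the F2 females among these animals. Higher agreement within groups thus follows in part from how they were drawn, and it was not read in males alone.

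The largest group held 10 members in 5 distinct rows. It includes the near-identical rows of ENSMUST00000116373, ENSMUST00000068575 and ENSMUST00000010038, those of ENSMUST00000100417, and ENSMUST00000103164 and ENSMUST00000073471. Of its 45 pairs 25 reached 0.5 in males. ENSMUST00000103164 and ENSMUST00000100417 put 76.6% of animals at the same level and 1 animal at opposite ends, and ENSMUST00000116373 and ENSMUST00000073471 put 77.0% at the same level and 0 at opposite ends. Agreement was lower between ENSMUST00000100417 and ENSMUST00000116373, at 57.8% with 5 animals at opposite ends.

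For every pair of this group, correlations within levels used the levels of its best split member, ENSMUST00000010038. For ENSMUST00000103164 and ENSMUST00000100417 r was 0.69, 0.72 and 0.71 within its low, middle and high levels. These rows shared its level in only 63.5% and 57.4% of animals, so each level still mixes their own levels. For ENSMUST00000103164 and ENSMUST00000010038 r was 0.08, 0.15 and 0.36. Since ENSMUST00000010038 itself gave the levels, these pairs cannot be compared directly.

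The second group held 7 members in 5 distinct rows, among them ENSMUST00000032944, ENSMUST00000033213 and ENSMUST00000070943, 3 of the 10 with the greatest strain difference, and ENSMUST00000098326, with the highest F1 position. The rest are the near-identical rows ENSMUST00000071069, ENSMUST00000106821 and ENSMUST00000033211. ENSMUST00000033213 and ENSMUST00000070943 agreed in level in 92.2% of animals with 0 at opposite ends. Within the levels of ENSMUST00000033213 their r was 0.84, 0.89 and 0.91. ENSMUST00000032944 followed ENSMUST00000033213 loosely within the same levels, at 0.28, 0.33 and 0.27.

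Groups 3 and 4 were each a single near-identical group. Group 3 held 7 rows, those of ENSMUST00000101655, with ENSMUST00000081318, ENSMUST00000101649 and ENSMUST00000093406 the most central. Group 4 held the 6 rows of ENSMUST00000110135, with ENSMUST00000060955, ENSMUST00000063729 and ENSMUST00000110136 the most central. Their correlations were at least 0.968 in males, and whether the rows share probes was not tested.

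The fifth group joined the well split pair ENSMUST00000112393 and ENSMUST00000048660 to the near-identical rows ENSMUST00000111901, ENSMUST00000111902 and ENSMUST00000006171, which were not split. Within the levels of ENSMUST00000112393 its r with ENSMUST00000111901 was 0.37, 0.27 and 0.44. In the sixth group ENSMUST00000098672, ENSMUST00000098666 and ENSMUST00000075552 joined with ENSMUST00000070639. ENSMUST00000075552 and ENSMUST00000098666, which had 2 levels each, agreed in level in 268 of 282 animals, and within the levels of ENSMUST00000098672 its r with ENSMUST00000098666 was 0.62, 0.82 and 0.60.

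Of the smaller groups, ENSMUST00000022317 and ENSMUST00000042949 agreed in level in 85.5% of animals with 1 at opposite ends. ENSMUST00000023820 and ENSMUST00000090564, which were not split, had a Pearson r of 0.68 and a Spearman rho of 0.68 in males (permutation p of 1e-05 for each, the smallest possible, adjusted as above). Without the 2 males farthest from the median r was 0.67, and it was positive in 12 of 12 batches read. ENSMUST00000029017 and ENSMUST00000002360 had an r of 0.61 and a rho of 0.55 in males, 0.59 without those 2 males, and were also positive in 12 of 12 batches. Over the 77 pairs of distinct rows r was positive in every batch in 46, and the lowest number was 10 of 12.

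The 12 single members include strongly split ones. ENSMUST00000028938 had its strongest female correlation, 0.20, with ENSMUST00000006171, and 0.10 there in males, although both its F1 mean and its F2 levels were among the clearest. ENSMUST00000023934 reached 0.31 with ENSMUST00000033213 in females and 0.28 in males. ENSMUST00000035842 had 0.43 in females and 0.57 in males with ENSMUST00000090564, and ENSMUST00000057500 had 0.44 in females and 0.54 in males with ENSMUST00000034569, so these pairs passed 0.5 in males alone. Groups drawn in males held 63 members.

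Transcripts outside the members also followed the largest groups. A mean r of at least 0.5 in size with the group was reached in F2 females by 66 transcripts for the first, 15 for the second and 28 for the third, and of these 26, 8 and 21 also reached it in males. The nearest to the first group were ENSMUST00000018569, ENSMUST00000057685 and ENSMUST00000053025, with mean r of 0.56, 0.61 and 0.67 in males. The third of these is 1 of the 8 left out by identifier, and the other 2 differed by 0.45 and 0.43 between SM and MRL.

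The nearest to the second group were ENSMUST00000033052, ENSMUST00000084660 and ENSMUST00000032912, with mean r of 0.60, 0.59 and 0.55 in males and strain differences of 0.23, 0.51 and 0.72. For the third they were ENSMUST00000105586, ENSMUST00000030950 and ENSMUST00000030942, with 0.53, 0.49 and 0.64 and strain differences of 0.27, 0.08 and 0.77. All 9 had SM above MRL on average, and the 3 with the smallest differences had overlapping SM and MRL animals.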

How the data were processed

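The authors made the deposited log2 values, 1 for each Ensembl transcript, with RMA (affy, R 2.11), per the submitters' processing notes. RMA normalizes over all arrays jointly. The Ensembl release is not given in the sources used here. All 34406 transcripts and 300 arrays were used, without a filter.

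The members, lists and tests were chosen with earlier results of these data known. F1 was compared with the mean of the 4 parental groups, by sex too, and F2 with F1, in limma 3.58.1 (R 4.3.3), with p-values adjusted by Benjamini-Hochberg over the whole table and called at 0.05. For F2, batch effects were estimated in F2 and subtracted. Mixtures, correlations and figures used Python 3.11.15 with numpy 2.4.6, scipy 1.17.1, networkx 3.6.1 and matplotlib 3.10.9. Each mouse is a separate animal.

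Members named are the 10 with the greatest strain difference, those called, the ends of F1 position, spread, split and skewness, the 3 most central of the 6 largest groups, and those nearest a limit. ENSMUST00000035842, ENSMUST00000023820 and other members outside this rule were named after their values were seen. Cell type markers were not applied, since rows have no symbols here.

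On simulated data for 34406 transcripts, 98% of changes of 0.5 in F1 against the parental mean and 70% in the sex difference of F1 were recovered, and for the variance ratio 12% at an SD ratio of 3 and 50% at 4. Levels 3 SD apart were split in 32% of simulated members and levels 4 SD apart in 100%. The main fits did not pair SM and MRL animals by number. Same-numbered animals correlated at -0.08 to 0.22 in their deviations and differently numbered ones at -0.28 to 0.15. With 3 animals for each strain and sex, this cannot settle whether the numbers pair animals.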

Additional observations from a re-analysis of the deposited data

Results flagged for a closer look

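The departure of F1 from the parental mean differed between the sexes, by the limma interaction, in 6 members of 1 near-identical group. Male minus female, it was -0.91 for ENSMUST00000110135, -0.83 for ENSMUST00000110136, -0.82 for ENSMUST00000110137, -0.82 for ENSMUST00000028822, -0.81 for ENSMUST00000060955 and -0.80 for ENSMUST00000063729. The array spread averaged 1.26 in F1 males and 1.31 in F1 females, and its part in the difference was not tested beyond the fit with its slope subtracted, in which none of the 6 was called.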

How the results depend on the processing

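The numbers below count members called, and the cause of each change was not tested. For F1 against the parental mean (1 called) the count was 0 after quantile normalization, with batch effects subtracted and with batch as a fixed term, and 0 to 9 when animals were left out in turn. For the F1 sex difference (6 called) it was 0 after quantile normalization, with transcripts above the median mean only, with batch effects subtracted, with batch as a fixed term and with the slope on array spread subtracted, and 0 to 8 when animals were left out. With the animal number as a replicate block the counts were 1 and 0. The variance ratio called 6 members where the planned spread test called 0. It called 1 to 18 when F1 animals were left out, and 3 with the array spread slope subtracted. F2 against F1 means stayed at 0 called under 9 alternatives. The median F1 position stayed between 0.55 and 0.64 under 22 alternatives. The number of split members stayed between 27 and 35 under 5. Members in correlated groups numbered 54 to 63 under 7, and 27 rows with 1 row for each near-identical group. With 6 F1 animals, 12% of simulated SD ratios of 3 were found.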
